A study of Mus musculus with 8 samples.

Results

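Nascent RNA at 60 min of lipopolysaccharide (LPS) was compared with nascent RNA at 20 min in mouse macrophages, over every gene with a mean of at least 0.5 FPKM across the 8 libraries of the LPS time course. This rule kept 8343 of the 22753 genes listed. FPKM, fragments per kilobase and per mapped library total, corrects for gene length and library size, so levels of different genes can be set side by side. The macrophages were grown from bone marrow of male C57BL/6 mice aged 8 weeks and were held in serum-free medium before treatment. The 20 and 60 min groups received 100 ng/ml LPS, and each had 2 biological replicates. An untreated group at 0 min and a group at 180 min of the same LPS dose, also with 2 replicates each, entered the model for its estimate of the spread. Nuclei were allowed to run on in BrUTP and the labelled RNA was isolated with an antibody to BrU (GRO-seq), so that a value reflects polymerases engaged on the gene and not stored messenger RNA. The labels do not say whether replicates came from separate mice or whether marrow was pooled, so the p-values measure the spread between these libraries.

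LPS, a component of the outer membrane of Gram-negative bacteria, is sensed on macrophages by Tlr4 with its partners Cd14 and Ly96. Adaptors that include Myd88 and Ticam1 pass the signal to NF-kB, to MAP kinases and to interferon regulatory factors. Immediate early genes, many of them transcription factors, are transcribed from pre-existing factors within minutes, and their products and those of feedback inhibitors act on the genes transcribed later. Interferon beta, made in this response, acts back on the cells through its receptor, Jak kinases and STAT proteins.

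Replicate 1 libraries were deeper, at 44.4 to 61.2 M reads recovered from the steps of the FPKM values, against 7.96 to 11.1 M for replicate 2. The labels state a depth above 50 M reads a library. Less was recovered in every library of replicate 2, in 60 min replicate 1 (48.8 M) and in 180 min replicate 1 (44.4 M). The read counts given with FPKM values rest on the recovered depth. Log2 values correlated across genes with r = 0.874 between the 20 min replicates and 0.834 between the 60 min replicates. Between 20 and 60 min, r was 0.825 in replicate 1 and 0.798 in replicate 2, and genes are not independent replicates. Replicates also differed for single RNAs. Malat1, a nuclear long noncoding RNA, was at 97.0 and 1048 FPKM at 20 min, followed by 41.8 and 919 FPKM at 60 min, replicate 1 given first as throughout. Of 32 macrophage identity genes, 29 were tested. No marker of stroma or of the erythroid, mast cell, dendritic, B cell or T and NK cell lineages reached the level needed for testing, and none of them exceeded 0.859 FPKM in the 4 libraries compared. Of 9 neutrophil markers, S100a8 and S100a9 were tested. Their list summed to 2.51 and 7.32 FPKM at 20 min, compared with 4.23 and 11.7 FPKM at 60 min, with S100a9 called higher (adjusted p = 0.021). That call was lost without the replicate block (0.79) and when 20 min replicate 1 (0.14), 20 min replicate 2 (0.076) or 60 min replicate 2 (0.19) was left out. Of the neutrophil markers not tested, Ngp reached 1.57 FPKM and Camp 0.864 FPKM, both in 60 min replicate 2, and Elane, Mpo, Ltf, Prtn3 and Cxcr2 stayed at or under 0.172 FPKM. The part of neutrophil RNA in the results was not tested. In these bulk libraries, fewer cells of a type and less RNA per cell cannot be told apart.

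Between 20 and 60 min, 775 genes rose (9.29% of those tested), 1219 fell (14.6%), 23.9% in all, and 6349 did not pass the test (limma with the replicate number as a block, Benjamini-Hochberg adjusted p under 0.05). Of the genes called, 527 rose and 914 fell by at least 1 on the log2(FPKM + 0.1) scale, a scale that understates changes of low genes. The median change was 1.20 among genes that rose and -1.29 among genes that fell, against -0.055 over all genes tested. At the extremes, 39 genes rose and 27 fell by at least 3. All 1994 calls had the same sign in both replicates. The 20 and 60 min values did not overlap for 698 of the rises and 1119 of the falls. The test favours genes whose replicates moved alike and whose groups lie apart, so these counts are not separate support for the calls. The matching shares over all genes tested were not counted. Of the genes that rose, 136 had a mean under 0.5 FPKM at 20 min, and of those that fell, 569 had a mean under 0.5 FPKM at 60 min. Some of these were tested only because of the libraries in which they were high. Ifnb1, Il12b and Csf2 passed the filter through 60 and 180 min, and Cerk through 0 and 20 min. For such genes the filter largely set the direction of the call, and they enter the shares below. The calls rest on the pairing of the replicates: without the replicate block 190 genes were called higher (2.28%) and 289 lower (3.46%), 5.74% in all. They rest also on the scaling, since quantile normalization called 1172 higher (14%) and 1189 lower (14.3%). With 1 library left out, the calls ranged from 838 in all, without 20 min replicate 2, to 2844, without 180 min replicate 1. A set of 291 rises and 435 falls was called whichever of the 8 libraries was left out.

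**Figure D1:**
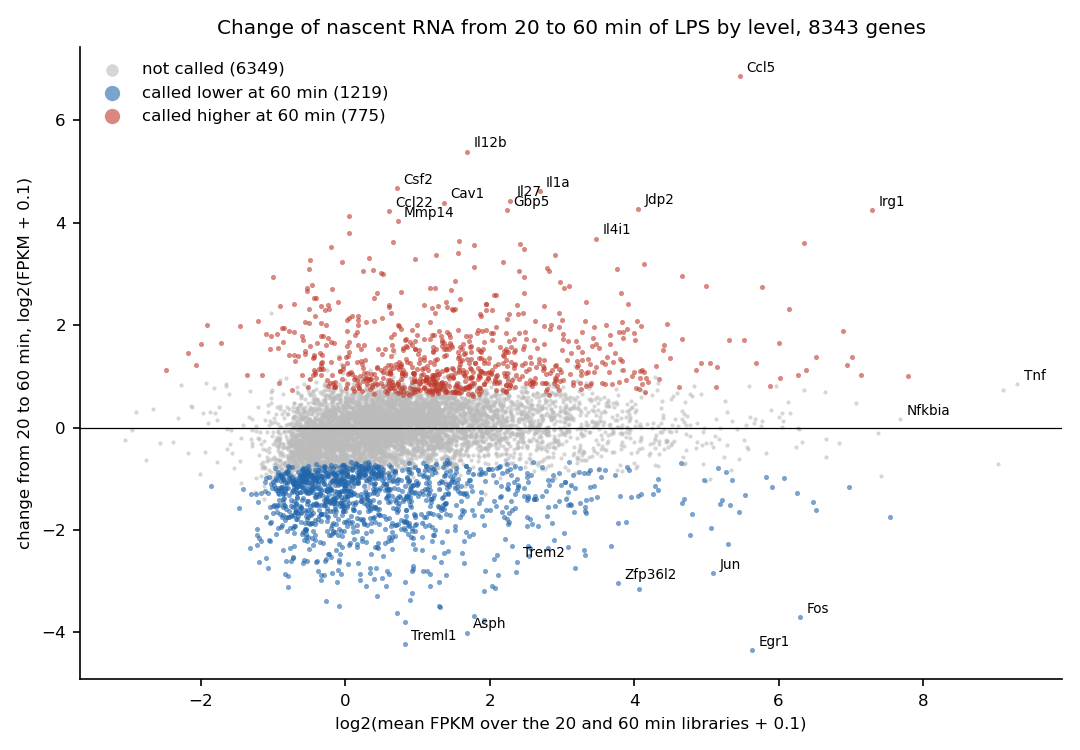
Change from 20 to 60 min (vertical axis, log2(FPKM + 0.1)) against the mean level over the 20 and 60 min libraries (horizontal axis, log2 scale) for 8343 genes, 1 point a gene. Red points are the 775 genes called higher and blue points the 1219 called lower; Ccl5 lies highest, Egr1 lowest, and Tnf and Nfkbia are among the highest levels but were not called.

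**Figure D2:**
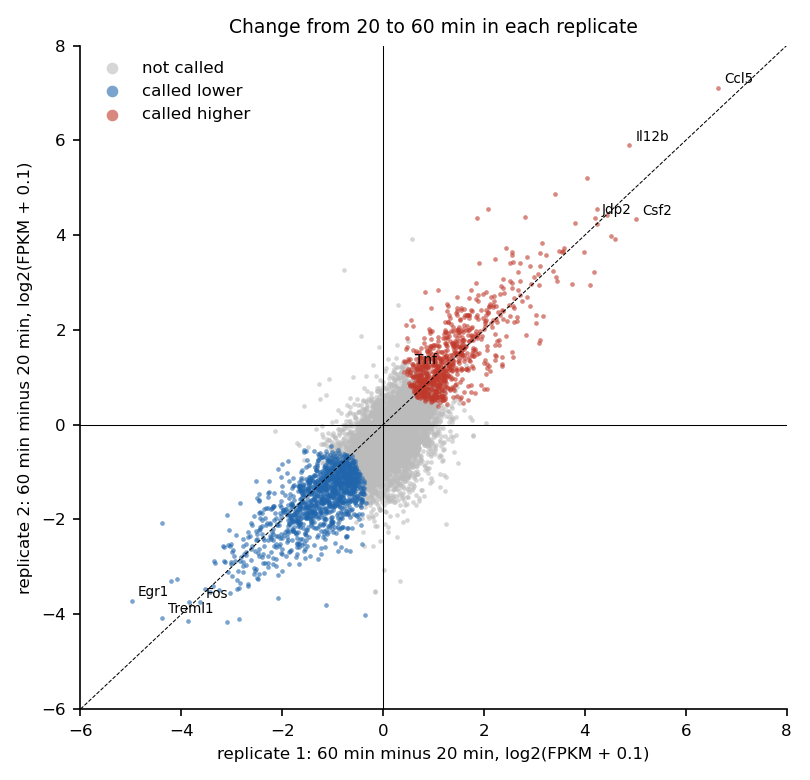
Change from 20 to 60 min in replicate 2 (vertical axis) against replicate 1 (horizontal axis), both as log2(FPKM + 0.1), 1 point a gene, with the dashed line marking equal change. All 1994 called genes, red for higher and blue for lower, lie in the quadrants where both replicates changed in the same direction, which the test favours.

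The sequences just upstream of 5 genes that the results turn on are shown first: interferon beta, the interferon-inducible chemokine Cxcl10, the GTPase Gbp5 and the neutrophil chemokine Cxcl3, which had higher values at 60 min, and Fos, which fell. They were picked because their windows hold matches to the motifs below. Each is the 250 bases before the RefSeq start, read 5′ to 3′ on the gene's strand (GRCm38.p6). Capitals mark matches on either strand to the kB motif, bound by NF-kB, and to the interferon-stimulated response element (ISRE, searched as GAAA, any 2 bases and GAAA). The windows are chr4:88522795-88523044 (minus strand) for Ifnb1, chr5:92348890-92349139 (minus) for Cxcl10, chr3:142496684-142496933 (plus) for Gbp5, chr5:90785851-90786100 (plus) for Cxcl3 and chr12:85473640-85473889 (plus) for Fos.
Ifnb1: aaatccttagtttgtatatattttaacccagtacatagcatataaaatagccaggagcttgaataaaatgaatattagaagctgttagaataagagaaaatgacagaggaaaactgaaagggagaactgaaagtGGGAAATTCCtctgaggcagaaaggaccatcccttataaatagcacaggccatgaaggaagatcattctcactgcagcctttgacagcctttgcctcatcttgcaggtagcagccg
Cxcl10: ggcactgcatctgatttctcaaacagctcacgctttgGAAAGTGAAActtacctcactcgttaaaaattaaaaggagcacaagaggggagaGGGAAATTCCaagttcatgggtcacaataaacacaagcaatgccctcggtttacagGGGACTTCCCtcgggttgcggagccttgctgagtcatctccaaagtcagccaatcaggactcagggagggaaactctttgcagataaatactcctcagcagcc
Gbp5: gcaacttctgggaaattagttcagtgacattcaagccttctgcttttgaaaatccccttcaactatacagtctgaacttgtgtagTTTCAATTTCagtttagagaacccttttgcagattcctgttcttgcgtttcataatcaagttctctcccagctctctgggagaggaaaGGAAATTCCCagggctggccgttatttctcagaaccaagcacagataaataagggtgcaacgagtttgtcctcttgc
Cxcl3: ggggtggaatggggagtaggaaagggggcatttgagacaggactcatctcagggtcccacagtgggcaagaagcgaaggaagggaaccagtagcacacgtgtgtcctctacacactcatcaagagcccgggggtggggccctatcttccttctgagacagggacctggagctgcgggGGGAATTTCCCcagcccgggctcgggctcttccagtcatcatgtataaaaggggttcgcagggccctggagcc
Fos: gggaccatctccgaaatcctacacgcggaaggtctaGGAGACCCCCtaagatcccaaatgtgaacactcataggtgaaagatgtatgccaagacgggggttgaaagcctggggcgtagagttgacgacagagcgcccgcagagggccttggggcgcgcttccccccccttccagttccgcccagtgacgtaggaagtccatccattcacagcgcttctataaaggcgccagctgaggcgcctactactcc

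Counted from the RefSeq start, the kB match of Ifnb1 lies at -116 to -107. Cxcl10 has kB matches at -159 to -150 and -103 to -94 and an ISRE match at -213 to -204. In Gbp5 the kB match lies at -77 to -68 and the ISRE match at -165 to -156, both on the reverse strand. The 2 kB matches of Cxcl3, at -73 to -64 on the forward and -72 to -63 on the reverse strand, overlap each other, and the single kB match of Fos, on the reverse strand, lies at -214 to -205. The matches of Ifnb1 and Cxcl10 are on the forward strand. A match is a run of letters and was not shown here to be a bound site.

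Over genes with exactly 1 RefSeq window, 7.79% of the 462 genes called higher and 5.69% of the 686 called lower held a kB match, against 5.03% of the 5128 tested. ISRE matches were found in 5.84% of the genes called higher, 2.33% of those called lower and 3.39% of those tested. AP-1 matches (TGANTCA) were found in 8.23%, 6.56% and 4.78% in the same order. For the cAMP response element (tgacgtca) the shares were 2.81%, 3.06% and 3.63%, for the CArG box of serum response factor 1.52%, 1.75% and 1.42%, and for the Egr site (gcgngggcg) 11.7%, 10.2% and 10.8%. TATAAA was present in 8.87% of the genes called higher, 7.14% of those called lower and 6.67% of those tested. Among all 22862 windows of the table with 1 window a gene, tested or not, kB matches were in 4.26%, ISRE matches in 3.58%, AP-1 matches in 7.98% and TATAAA in 14.8%. All motifs were searched on both strands, and these shares are a description with no test. The windows searched for the shares also held bases just after the RefSeq start, which the printed sequences leave out.

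Cytokines and chemokines made up 6 of the 12 largest rises named, and all 6 were under 1 FPKM at 20 min. Ccl5, a chemokine that attracts T cells and monocytes (chr11:83339281-83344020 on mm9), was at 0.468 and 0.762 FPKM at 20 min, and then 56.4 and 119 FPKM at 60 min. Both 60 min libraries lay far above both 20 min libraries, and the change of 6.87 ± 0.23 (SE) was the largest of all genes tested (limma adjusted p = 3.0e-06). At 180 min it stood at 269 and 412 FPKM. Il12b, which encodes a subunit shared by IL-12 and IL-23 (chr11:44213565-44227519), was at 0.029 and 0.047 FPKM at 20 min, then 3.71 and 8.68 FPKM at 60 min. These values rest on 23 and 6 reads against 2525 and 1348 reads, and the change was 5.39 ± 0.32 (adjusted p = 6.2e-05). Csf2, the growth factor GM-CSF (chr11:54060772-54063401), had 5 and 0 reads at 20 min and 542 and 56 reads at 60 min, which gave 4.22 and 1.91 FPKM at 60 min. Its change was 4.68 ± 0.53 (adjusted p = 0.00048).

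The interleukin genes Il1a and Il27 followed, both at well under 1 FPKM at 20 min. Il1a, a pro-inflammatory cytokine (chr2:129125346-129135708), was at 0.358 and 0.370 FPKM at 20 min, followed by 7.43 and 17.3 FPKM at 60 min, a change of 4.63 ± 0.34 (adjusted p = 0.00011). It overlaps Gm14023 on the other strand, and because strand handling is not given in the sources used here, reads of the pair cannot be told apart. Il27, a subunit of IL-27 (chr7:133732809-133738424), was at 0.273 and 0.390 FPKM at 20 min, compared with 8.03 and 10.4 FPKM at 60 min, a change of 4.43 ± 0.26. The values of neither gene overlapped between the times.

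Jdp2, a bZIP repressor that pairs with Jun proteins (chr12:86940968-86980828), had replicates that lay close together. It was at 1.6 and 1.46 FPKM at 20 min, and then 31.3 and 31.9 FPKM at 60 min, and it was lower again at 180 min, at 4.50 and 4.63 FPKM. The change from 20 to 60 min was 4.28 ± 0.20 (adjusted p = 3.0e-05). Cav1, the coat protein of caveolae (chr6:17256335-17291328), had a like course, from 0.095 and 0.163 FPKM at 20 min to 3.57 and 6.09 FPKM at 60 min and then 1.17 and 0.811 FPKM at 180 min. Irg1, the enzyme that makes itaconate (chr14:103446229-103455790), reached the highest level of the 12 largest rises, from 8.59 and 25.3 FPKM at 20 min to 210 and 382 FPKM at 60 min. Gbp5, an interferon-inducible GTPase (chr3:142159898-142185308), was at 0.283 and 0.478 FPKM at 20 min, then 8.69 and 9.05 FPKM at 60 min. Irg1 and Gbp5 both rose by 4.25, with SEs of 0.33 and 0.26.

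The other 3 of the 12 largest rises were Ccl22, a chemokine ligand of Ccr4, Mmp14, a membrane-bound matrix metalloprotease, and Il4i1, a secreted amino acid oxidase. Ccl22 rose by 4.24 from 22 and 2 reads at 20 min to 854 and 159 reads at 60 min. Mmp14 was at 0.118 and 0.068 FPKM at 20 min, followed by 2.94 and 3.10 FPKM at 60 min, a change of 4.03. Il4i1 was at 1.78 and 0.750 FPKM at 20 min, compared with 33.8 and 7.79 FPKM at 60 min, a change of 3.69 (adjusted p = 0.00011, and 0.064 without the replicate block). Il4i1 overlaps the read-through gene Nup62-il4i1 on the same strand, so its value is uncertain.

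**Figure D3:**
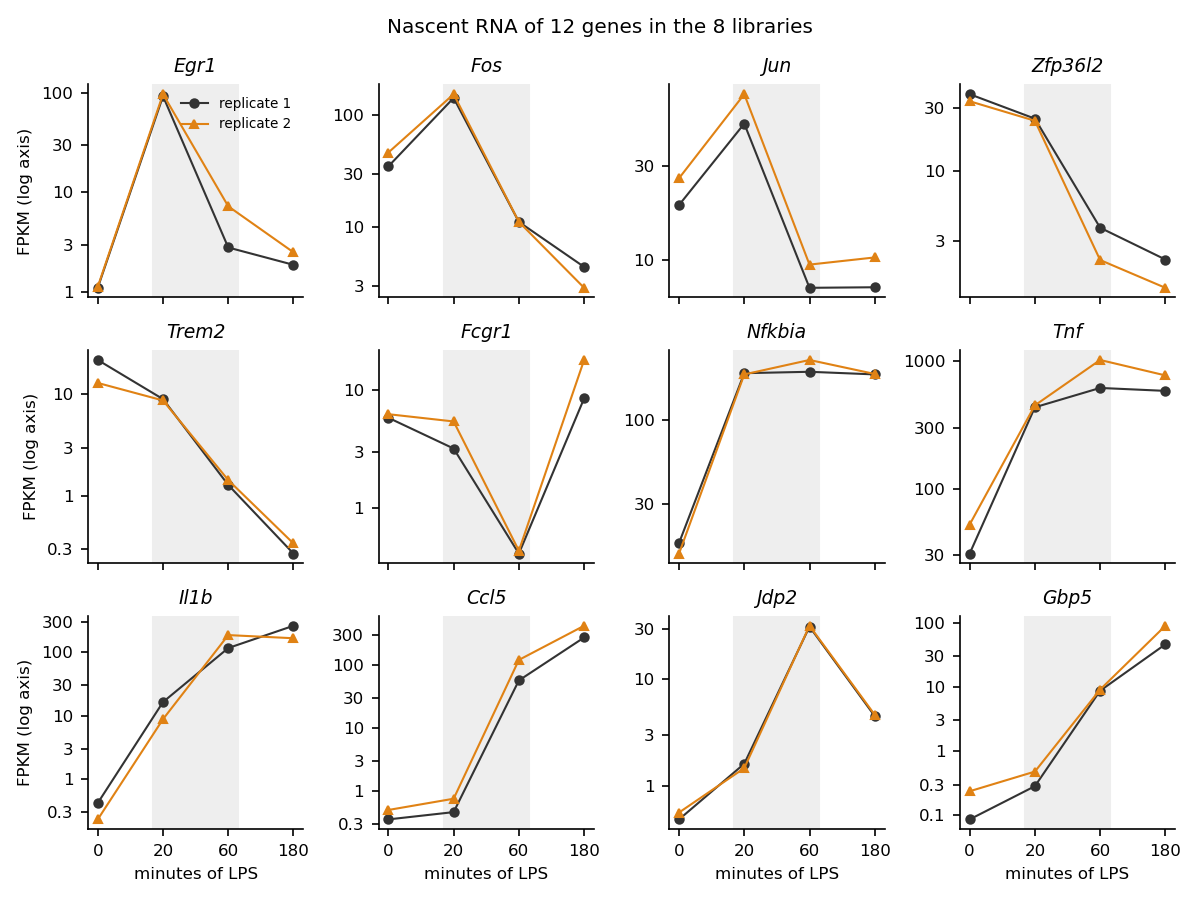
FPKM (log axis) of 12 genes in each of the 8 libraries at 0, 20, 60 and 180 min of LPS, with circles for replicate 1, triangles for replicate 2, and the 20 and 60 min libraries shaded; time points are evenly spaced and not to scale. Egr1, Fos and Jun are highest at 20 min, Jdp2 is highest at 60 min, Fcgr1 is lowest at 60 min, and Ccl5 and Gbp5 are highest at 180 min.

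The largest falls included 3 immediate early genes that were higher at 20 min than before LPS, and genes that were already transcribed before LPS. Egr1, a zinc finger transcription factor, was at 1.11 and 1.14 FPKM before LPS, 92.1 and 96.4 FPKM at 20 min, and then 2.81 and 7.26 FPKM at 60 min. The 60 min values lay far below the 20 min values, and the change of -4.35 ± 0.32 was the largest fall among the named genes (adjusted p = 0.00011). Fos, a subunit of AP-1 (chr12:86814851-86818219), was at 140 and 152 FPKM at 20 min and 11.2 FPKM in both 60 min libraries, below the 34.7 and 46.1 FPKM of untreated cells. Its change was -3.69 ± 0.27 (adjusted p = 0.00011). Egr3, a relative of Egr1 (chr14:70477252-70479964), was at 5.95 and 0.888 FPKM at 20 min, then 0.189 and 0.133 FPKM at 60 min, a change of -3.24 (adjusted p = 0.0023, and 0.070 without the replicate block).

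The other large falls were of genes already transcribed at 0 min. Treml1, a receptor known from platelets (chr17:48499241-48506471), was at 3.90 and 2.62 FPKM at 20 min, followed by 0.091 and 0.062 FPKM at 60 min. This was a change of -4.23 ± 0.26 from 1604 and 173 reads to 32 and 5 reads (adjusted p = 6.2e-05). Asph, an aspartate hydroxylase of the endoplasmic reticulum (chr4:9548057-9570864), was at 5.36 and 6.58 FPKM at 20 min, compared with 0.274 and 0.280 FPKM at 60 min, and it was back at 2.39 and 3.61 FPKM at 180 min. Its change of -4.0 had an adjusted p of 6.2e-05. Inpp5d, the lipid phosphatase SHIP1 (chr1:89516887-89617083), was at 2.90 and 3.67 FPKM at 20 min, and then 0.213 and 0.238 FPKM at 60 min, a change of -3.37.

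Cerk, ceramide kinase, went from 5.15 and 3.76 FPKM to 0.353 and 0.248 FPKM, a change of -3.50. Arhgap25, a regulator of Rac GTPases, went from 9.23 and 4.79 FPKM to 0.403 and 0.399 FPKM, a change of -3.75. The falls of the G protein-coupled receptor gene Gpr146 (-3.80) and of Tifab (-3.63) were of like size, and neither gene overlapped between the times; Gpr146 shares its locus with a gene on the other strand. Spata25 and Wfikkn1 completed the 12, with changes of -3.67 and -3.48. At 20 min Spata25 was at 11.9 FPKM in replicate 1 but 0.855 FPKM, from 9 reads, in replicate 2, and neither gene passed without the replicate block (adjusted p = 0.34 for Spata25 and 0.16 for Wfikkn1).

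Among 35 immediate early and stress response genes tested, 11 fell and 3 rose, shares of 31.4% and 8.57% against 14.6% and 9.29% of all genes, with a median change of -0.28. Jun, the partner of Fos in AP-1, was at 49.7 and 70.3 FPKM at 20 min, then 7.16 and 9.42 FPKM at 60 min, below the 19.0 and 26.1 FPKM at 0 min. Its change of -2.83 ± 0.20 had an adjusted p of 0.00011. Other abundant members were not called. Junb, another Jun family gene, was at 123 and 93.1 FPKM at 20 min, followed by 76.2 and 110 FPKM at 60 min, and these values overlapped (adjusted p = 0.59). Klf6, a zinc finger factor, was at 77.4 and 96.3 FPKM at 20 min, compared with 54.7 and 92.2 FPKM at 60 min (adjusted p = 0.43). The number of members called lower was 3 without the replicate block, and with 1 library left out was lowest at 5, without 20 min replicate 1; the number called higher was 0 without the block and 0 without 20 min replicate 2 or without 60 min replicate 2.

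Of 12 feedback inhibitors of MAP kinases tested, 3 were higher and 3 lower, 25% in each direction against 9.29% and 14.6% of all genes (0 and 1 without the replicate block, and 0 higher and 1 lower without 20 min replicate 1, 20 min replicate 2 or 60 min replicate 2). Dusp1, a nuclear MAP kinase phosphatase, was at 237 and 110 FPKM at 20 min, and then 107 and 48.5 FPKM at 60 min, so that every 20 min value was above every 60 min value. The change was -1.16 ± 0.26 (adjusted p = 0.013), a call lost without the replicate block (0.39) and when 20 min replicate 1 (0.081), 20 min replicate 2 (0.063) or 60 min replicate 2 (0.080) was left out. Dusp6, a cytoplasmic phosphatase of Erk kinases, fell by 2.23 from 3.67 and 4.47 FPKM to 0.967 and 0.633 FPKM (adjusted p = 0.00065). Dusp2 was at 36.9 and 8.19 FPKM at 20 min, then 49.4 and 18.9 FPKM at 60 min and was not called (adjusted p = 0.21).

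Of 13 factors of mRNA decay, 2 rose and 3 fell, or 15.4% and 23.1% against 9.29% and 14.6% of all genes (1 and 3 without the replicate block), with a median change of 0.04 that was -0.05 after quantile normalization. Members of the Zfp36 family, whose proteins bind AU-rich elements and destabilise messenger RNAs, were among the falls. Zfp36l2 was at 24.8 and 23.9 FPKM at 20 min, followed by 3.78 and 2.17 FPKM at 60 min, a change of -3.04 ± 0.24 (adjusted p = 0.00013). Zfp36l1 was at 5.60 and 8.85 FPKM at 20 min, compared with 0.694 and 0.787 FPKM at 60 min, a change of -3.09. For Zfp36 itself the values were 314 and 147 FPKM at 20 min, and then 129 and 95.4 FPKM at 60 min, which did not overlap but did not pass the test (adjusted p = 0.057, and 0.0013 to 0.43 over the alternatives, which called it in 5 of 20). The endonuclease relatives Zc3h12c and Zc3h12d moved in opposite directions, by 1.94 and -1.74 (adjusted p = 0.0016 and 0.00052).

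NF-kB subunits and feedback genes were higher in 10 of 21 tested (47.6%, against 9.29% of all genes) and lower in 1 (4.76%, against 14.6%). Their median change was 0.71. Nfkb1, the p105 precursor of the p50 subunit, was at 3.07 and 2.89 FPKM at 20 min, then 14.4 and 19.7 FPKM at 60 min. The groups lay well apart, and the change was 2.46 ± 0.22 (adjusted p = 0.00019). Traf1, a signalling adaptor, went from 8.70 and 8.04 FPKM to 26.7 and 43.9 FPKM, a change of 2.02. Tnip1, a partner of the ubiquitin editor A20, went from 10.0 and 5.33 FPKM to 28.1 and 20.9 FPKM, a change of 1.72 (adjusted p = 0.00076, and 0.097 without the replicate block). Rel, another NF-kB subunit, rose by 1.30 (adjusted p = 0.0041), a call lost without 20 min replicate 2 (0.076) and without the replicate block (0.059).

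Nfkbia, the inhibitor IkB alpha, was already at 195 and 191 FPKM at 20 min and stood at 199 and 235 FPKM at 60 min, against 17.3 and 14.9 FPKM before LPS. The change of 0.16 ± 0.23 was not called (adjusted p = 0.66). Nfkbiz, a nuclear IkB protein, was at 59.3 and 44.9 FPKM at 20 min, followed by 48.5 and 65.4 FPKM at 60 min, which overlapped (adjusted p = 0.76). The number of NF-kB list members called higher was 2 without the replicate block and 3 without 20 min replicate 2.

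Cytokine and growth factor genes were higher in 15 of 24 tested (62.5%, against 9.29% of all genes) and lower in 2 (8.33%, against 14.6%). Their median change was 1.19, and without the replicate block 8 were higher and none lower. Beyond Il12b, Csf2, Il27 and Il1a, the level of Il1b stood out. Il1b was at 16.4 and 8.82 FPKM at 20 min, compared with 116 and 186 FPKM at 60 min, a change of 3.6 ± 0.36 with no overlap (adjusted p = 0.00028). Il1b overlaps Il1bos on the other strand. Tnf was already at 436 and 451 FPKM at 20 min. It stood at 618 and 1025 FPKM at 60 min, and although both 60 min values were above both 20 min values, the change of 0.84 ± 0.27 did not pass the test (adjusted p = 0.054, and 0.0013 to 0.89 over the alternatives, which called it in 5 of 20). Il6 was low at both times, at 0.044 and 0.177 FPKM at 20 min, and then 0.617 and 1.78 FPKM at 60 min, a change of 2.54 (adjusted p = 0.0014, and 0.053 without the replicate block). At 180 min Il6 stood at 26.2 and 49.7 FPKM.

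Ifnb1, interferon beta, was listed at 0 in both 20 min libraries and both untreated libraries. At 60 min it was at 0.959 and 2.80 FPKM, from 36 and 24 reads, and it was called higher (adjusted p = 0.00029). No fold is given against a group at 0. Ifnb1 passed the filter only through the 60 and 180 min libraries, so a fall could not have been called. Csf1, the macrophage growth factor, was named after its values were seen, for a lower mean at 180 min than at 60 min. That difference was not tested, and the values overlapped between those times. Csf1 was at 0.736 and 0.806 FPKM at 20 min, 7.31 and 12.9 FPKM at 60 min, then 3.73 and 7.57 FPKM at 180 min. The change from 20 to 60 min was 3.49 (adjusted p = 0.00011).

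Chemokine genes were higher in 10 of 17 tested (58.8%, against 9.29% of all genes), with none lower (against 14.6%). Their median change was 1.03, and 5 were higher without the replicate block. Cxcl10, a ligand of Cxcr3, was at 3.38 and 6.57 FPKM at 20 min, then 19.7 and 70.8 FPKM at 60 min, a change of 2.96 ± 0.31 (adjusted p = 0.00035). The replicates of Cxcl10 lay far apart at 60 min, it overlaps Art3 on the other strand, and it did not pass without the replicate block (0.16). Cxcl3 was at 0.406 and 0.275 FPKM at 20 min, followed by 5.95 and 4.87 FPKM at 60 min, a change of 3.65 ± 0.42 (adjusted p = 0.00049).

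Other chemokines were already high at 20 min. Ccl4, which attracts monocytes, was at 95.6 and 88.2 FPKM at 20 min, compared with 170 and 208 FPKM at 60 min, a change of 1.03 (adjusted p = 0.013). That call was lost when 20 min replicate 2 (0.13) or 60 min replicate 2 (0.063) was left out and without the replicate block (0.12). Cxcl2, which attracts neutrophils, stood at 302 and 456 FPKM at 20 min, and then 347 and 1108 FPKM at 60 min, which overlapped (adjusted p = 0.18). Ccl9 was at 135 and 91.7 FPKM at 20 min, then 150 and 160 FPKM at 60 min (adjusted p = 0.22).

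Of 54 interferon-stimulated genes tested, 16 were higher (29.6%, against 9.29% of all genes) and 1 lower (1.85%, against 14.6%). The median change of 0.16 was uneven between replicates, at 0.35 in replicate 1 and 0.011 in replicate 2. Without the replicate block 6 were higher. Guanylate-binding proteins led the list: beside Gbp5, Gbp2 was at 0.693 and 0.593 FPKM at 20 min, followed by 5.24 and 4.13 FPKM at 60 min, a change of 2.68 ± 0.27 (adjusted p = 0.00029). Ifih1, the RNA sensor Mda5, went from 0.930 and 1.22 FPKM to 5.32 and 8.88 FPKM, a change of 2.58. Ifit1, an antiviral RNA-binding protein, was at 0.866 and 1.30 FPKM at 20 min, compared with 2.18 and 4.52 FPKM at 60 min, a small rise beside its 62.4 and 110 FPKM at 180 min. The change of Ifit1 was 1.48 ± 0.21 (adjusted p = 0.0015, and 0.15 without the replicate block). Slfn2 was at 67.3 and 61.3 FPKM at 20 min, and then 77.5 and 79.1 FPKM at 60 min and was not called (adjusted p = 0.38).

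Among 14 genes of interferon regulatory factors and STATs, 2 rose and 3 fell, or 14.3% and 21.4% against 9.29% and 14.6% of all genes. No fall was called without the replicate block, under median-ratio scaling or without any 1 of 20 min replicate 1, 20 min replicate 2 and 60 min replicate 2, while 2 rises were called in each of these. The median change of -0.03 became 0.06 under median-ratio scaling. Stat5a, which acts downstream of cytokine receptors such as that of GM-CSF, was at 0.593 and 0.448 FPKM at 20 min, then 4.44 and 3.56 FPKM at 60 min, a change of 2.73 ± 0.20 (adjusted p = 0.00011). Irf4 was at 0.298 and 0.272 FPKM at 20 min, 1.51 and 1.6 FPKM at 60 min and then 0.273 and 0.092 FPKM at 180 min, so both neighbouring times lay below 60 min. Its change from 20 to 60 min was 2.10 (adjusted p = 0.0016). Irf1 was at 58.3 and 33.5 FPKM at 20 min, followed by 45.1 and 57.2 FPKM at 60 min, which overlapped (adjusted p = 0.69).

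The fall of Irf8, a factor of the macrophage lineage, from 6.43 and 4.90 FPKM to 2.37 and 1.32 FPKM was near the threshold (adjusted p = 0.042). It was lost without 20 min replicate 1 (0.17), 20 min replicate 2 (0.11) or 60 min replicate 2 (0.31), and without the replicate block (0.18). Jak2, the kinase upstream of several STATs, belonged to no list and was named after its values were seen. It was at 0.787 and 0.650 FPKM at 20 min, compared with 10.2 and 9.32 FPKM at 60 min, a change of 3.6 ± 0.20 (adjusted p = 6.2e-05).

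Inhibitors of cytokine signalling included 3 rises and 1 fall among 7 genes tested, or 42.9% and 14.3% against 9.29% and 14.6% of all genes (2 and 0 without the replicate block). Socs3, which blocks signalling of the Il6 receptor, was at 11.8 and 5.0 FPKM at 20 min, and then 69.9 and 40.5 FPKM at 60 min, a change of 2.77 ± 0.26 (adjusted p = 0.00021). Cish went from 35 and 2 reads to 584 and 62 reads, or 2.27 and 1.06 FPKM at 60 min, a change of 3.24. Socs1 was at 3.46 and 1.20 FPKM at 20 min, then 6.06 and 0.936 FPKM at 60 min and was not called (adjusted p = 0.80), and it stood at 44.8 and 60.9 FPKM at 180 min.

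In the Toll-like receptor pathway, 9 of 33 genes rose (27.3%) and 6 fell (18.2%), against 9.29% and 14.6% of all genes, with 3 and 0 called without the replicate block. The kinases Ripk2, which serves Nod receptors, and Ikbke, which phosphorylates interferon regulatory factors, were among the rises. Ripk2 was at 2.34 and 2.13 FPKM at 20 min, followed by 8.16 and 11.6 FPKM at 60 min, a change of 2.08 ± 0.22 (adjusted p = 0.00037). Ikbke went from 5.36 and 5.61 FPKM to 18.2 and 21.0 FPKM, a change of 1.82. Tlr4, the LPS receptor, which was named after its values were seen, was at 2.48 and 3.64 FPKM at 20 min, compared with 1.36 and 0.959 FPKM at 60 min, a change of -1.32 (adjusted p = 0.0064). Without 20 min replicate 2 (0.094), without 60 min replicate 2 (0.074) or without the replicate block (0.064) it was not called. Its coreceptor gene Cd14 was at 74.2 and 46.3 FPKM at 20 min, and then 68.6 and 66.6 FPKM at 60 min, which overlapped (adjusted p = 0.61). The number of pathway genes called higher was lowest at 4, without 60 min replicate 2, and the number called lower was lowest at 2, without 20 min replicate 2 or without 60 min replicate 2.

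The list of inflammatory effector enzymes had the largest share of rises among the lists, 15 of 20 (75%, against 9.29% of all genes). In it 1 gene was lower (5%, against 14.6%), and the median change was 1.68. Without the replicate block 6 were higher. Ptgs2, the cyclooxygenase of inflammation, which was named after its values were seen, was at 3.07 and 2.30 FPKM at 20 min, then 18.5 and 30.1 FPKM at 60 min, a change of 3.10 ± 0.30 (adjusted p = 0.00028). Saa3, an acute phase protein that is on the list but is not an enzyme, went from 0.191 and 0.654 FPKM to 3.15 and 9.40 FPKM, a change of 3.57. Mmp13, a collagenase, was at 0.509 and 1.71 FPKM at 20 min, followed by 5.19 and 22.3 FPKM at 60 min, a change of 3.37 (adjusted p = 0.00013, and 0.099 without the replicate block). Plau, the urokinase gene, was at 41.3 and 41.4 FPKM at 20 min, compared with 13.0 and 30.8 FPKM at 60 min and was not called (adjusted p = 0.12).

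Genes of costimulation and adhesion were higher in 10 of 15 (66.7%, against 9.29% of all genes) and lower in 1 (6.67%, against 14.6%). Their median change was 1.37 (4 higher and 0 lower without the replicate block). Cd40, the receptor for the T cell ligand Cd40lg, was at 4.39 and 2.52 FPKM at 20 min, and then 32.5 and 30.2 FPKM at 60 min, a change of 3.20 ± 0.24 (adjusted p = 0.00011). Vcam1, an adhesion molecule, went from 0.137 and 0.172 FPKM to 1.78 and 2.26 FPKM, a change of 3.05. Icosl, a costimulatory ligand, was at 3.54 and 0.980 FPKM at 20 min, 20.6 and 8.73 FPKM at 60 min and then 5.24 and 2.55 FPKM at 180 min. Its change of 2.77 passed the test (adjusted p = 0.00021) but not without the replicate block (0.083). The list's lowest count of rises with 1 library left out was 6, without 20 min replicate 2.

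Of 23 genes of survival, cell death and the inflammasome, 10 rose (43.5%) and 3 fell, with a median change of 0.49 (3 and 0 without the replicate block, and 4 and 0 without 20 min replicate 2). The 3 falls were 13% of the list, while 9.29% of all genes rose and 14.6% fell. Nod2, a sensor of bacterial muramyl dipeptide, was at 1.96 and 0.947 FPKM at 20 min, then 12.3 and 6.59 FPKM at 60 min, a change of 2.63 ± 0.22 (adjusted p = 0.00014). The Bcl2a1 genes Bcl2a1a, Bcl2a1b and Bcl2a1d, near-identical copies of an anti-apoptotic gene between which reads may be shared, changed by 3.10, 2.66 and 3.31 and are uncertain one by one; Bcl2a1b did not pass without the replicate block (adjusted p = 0.069). Mcl1, another anti-apoptotic gene, was at 94.2 and 76.5 FPKM at 20 min, followed by 56.4 and 76.0 FPKM at 60 min and was not called (adjusted p = 0.33).

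In the antigen presentation list 5 of 18 genes rose (27.8%) and none fell, with a median change of 0.33 (2 higher without the replicate block, and 3 without 60 min replicate 1). Over all genes tested, 9.29% rose and 14.6% fell. Psme2, a subunit of the proteasome activator, was at 2.64 and 3.21 FPKM at 20 min, compared with 12.1 and 13.7 FPKM at 60 min, a change of 2.11 ± 0.21 (adjusted p = 0.00030). Tapbp, the peptide loading chaperone tapasin, rose by 1.46 (adjusted p = 0.0023). B2m, the light chain of class I molecules, did not pass, at 39.6 and 55.2 FPKM at 20 min, and then 35.2 and 71.0 FPKM at 60 min (adjusted p = 0.80). B2m overlaps a gene on the other strand.

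**Figure D4:**
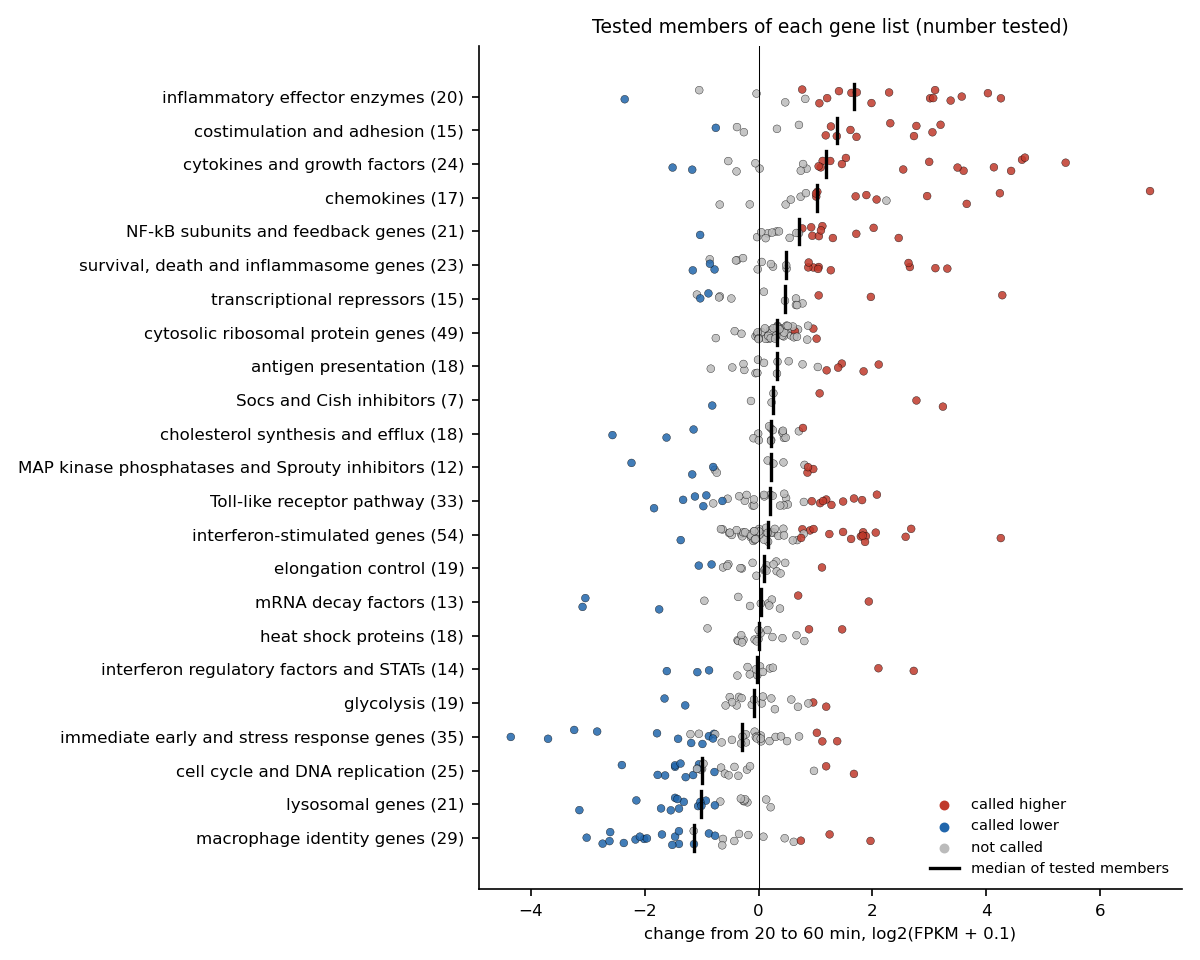
Change from 20 to 60 min (horizontal axis, log2(FPKM + 0.1)) of each tested member of 23 gene lists, 1 point a gene, with small random vertical shifts, and the number tested after each list's name. Red and blue mark members called higher and lower and black bars the medians, which run from -1.14 for macrophage identity genes to 1.68 for inflammatory effector enzymes.

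Genes of macrophage identity moved the other way, with 17 of 29 lower (58.6%, against 14.6% of all genes) and a median change of -1.14. In this list 3 genes were higher (10.3%, against 9.29% of all genes). The list summed to 418 and 380 FPKM at 20 min, then 249 and 246 FPKM at 60 min. Trem2, a lipid receptor, was at 8.99 and 8.72 FPKM at 20 min, followed by 1.29 and 1.44 FPKM at 60 min, a change of -2.62 ± 0.27 (adjusted p = 0.00031). Cd36, a scavenger receptor, went from 9.71 and 21.8 FPKM to 1.36 and 3.22 FPKM, a change of -2.74. Itgam, the integrin chain Cd11b, which was named after its values were seen, went from 2.05 and 3.01 FPKM to 0.428 and 0.376 FPKM, a change of -2.37. Siglec1, the sialic acid receptor CD169, fell by 2.60 on the log2 scale (adjusted p = 0.00028). The number lower was 8 without the replicate block and 13 without 20 min replicate 2.

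Fcgr1, the high-affinity receptor for IgG, was lowest at 60 min. It was at 3.20 and 5.41 FPKM at 20 min, 0.415 and 0.439 FPKM at 60 min and then 8.47 and 17.9 FPKM at 180 min, with a change of -3.02 ± 0.28 from 20 to 60 min (adjusted p = 0.00022). Cd200r1, an inhibitory receptor that belonged to no list and was named after its values were seen, was at 2.20 and 2.92 FPKM at 20 min, 0.188 and 0.230 FPKM at 60 min and then 1.33 and 2.75 FPKM at 180 min, with a change of -3.10 from 20 to 60 min (adjusted p = 0.00014). Not every identity gene was lower. Cebpb, a transcription factor, was at 42.5 and 14 FPKM at 20 min, compared with 44.6 and 15.0 FPKM at 60 min (adjusted p = 0.82), and Lpl, lipoprotein lipase, was at 33.3 and 54.8 FPKM at 20 min, and then 29.9 and 38 FPKM at 60 min (adjusted p = 0.55).

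Lysosomal genes were lower in 13 of 21 tested (61.9%, against 14.6% of all genes), with none higher (against 9.29%). Their median change was -1.0. Psap, the precursor of the saposins, was at 44.3 and 15.1 FPKM at 20 min, then 6.03 and 1.30 FPKM at 60 min, a change of -3.15 ± 0.37 (adjusted p = 0.00058, and 0.11 without the replicate block). Tfeb, a transcription factor of lysosomal genes, went from 3.85 and 2.04 FPKM to 0.916 and 0.326 FPKM, a change of -2.15 (adjusted p = 0.00029, and 0.11 without the replicate block). Npc1, a cholesterol transporter of the lysosome, fell by 1.71 on the log2 scale and passed in both fits (adjusted p = 0.00082 and 0.037), and it overlaps a gene on the other strand. Without the replicate block 2 lysosomal genes were lower, and without 20 min replicate 2 there were 8.

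Cell cycle and DNA replication genes were lower in 11 of 25 (44%, against 14.6% of all genes) and higher in 2 (8%, against 9.29%). Their median change was -0.99. Ccnd1, the cyclin D1 gene, was at 2.22 and 6.74 FPKM at 20 min, compared with 0.541 and 0.791 FPKM at 60 min, a change of -2.40 ± 0.36 (adjusted p = 0.0016, and 0.090 without the replicate block). Its relative Ccnd2 moved the other way, from 0.106 and 0.225 FPKM to 0.649 and 0.812 FPKM. The change of Ccnd2 was 1.68 (adjusted p = 0.0039, and 0.16 without the replicate block), and it overlaps a gene on the other strand. Mcm6, a subunit of the replicative helicase, went from 1.08 and 2.71 FPKM to 0.336 and 0.551 FPKM, a change of -1.77 (adjusted p = 0.0011, and 0.12 without the replicate block). Mki67, another list member, lay higher at 60 min, from 2.89 and 3.63 FPKM to 4.76 and 8.76 FPKM, but was not called (adjusted p = 0.078). Cdkn1b went from 4.20 and 4.53 FPKM to 3.75 and 4.10 FPKM and was not called either (adjusted p = 0.73). The list gave 1 fall without the replicate block and 3 without 20 min replicate 2.

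Of 18 genes of cholesterol synthesis and efflux, 3 fell (16.7%, against 14.6% of all genes) and 1 rose (5.56%, against 9.29%), none of them without the replicate block. Abcg1, an exporter of cholesterol, went from 4.35 and 0.868 FPKM to 1.37 and 0.213 FPKM, a change of -1.61 (adjusted p = 0.00078, and 0.59 without the replicate block). In glycolysis 2 of 19 rose and 2 fell, in elongation control 1 of 19 rose and 2 fell, among heat shock proteins 2 of 18 rose, and among cytosolic ribosomal protein genes 3 of 49 rose, shares of 10.5%, 5.26%, 11.1% and 6.12% higher against 9.29% of all genes. The falls in glycolysis and in elongation control were 10.5% of each list, against 14.6% of all genes. No heat shock or ribosomal protein gene was called lower. The ribosomal protein genes had a median change of 0.33, against -0.055 over all genes, with 0.56 in replicate 1 and 0.056 in replicate 2. Without the replicate block none of these 4 lists had a call in either direction. Actb was at 78.6 and 51.9 FPKM at 20 min, and then 86.0 and 48.8 FPKM at 60 min, a change of 0.02 (adjusted p = 0.97).

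Among 15 transcriptional repressors, 3 rose and 2 fell, or 20% and 13.3% against 9.29% and 14.6% of all genes (1 and 0 without the replicate block, and 1 and 0 without 20 min replicate 2). Beside Jdp2, the rises counted in this list included Kdm6b, which is not itself a repressor but a demethylase of lysine 27 of histone H3. Kdm6b was at 5.91 and 2.93 FPKM at 20 min, then 12.7 and 21.8 FPKM at 60 min, and it stood at 3.28 and 2.31 FPKM at 180 min. The change of 1.97 passed the test (adjusted p = 0.0057), but not without 20 min replicate 2 (0.065), without 60 min replicate 2 (0.067) or without the replicate block (0.054).

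Genes called were more frequent among long genes, in both directions. In genes under 5 kb, 7.40% of 1514 rose and 11.5% fell, and in genes over 100 kb, 13.5% of 520 rose and 23.3% fell. The classes between them, with 3215, 2122 and 972 genes, gave 8.58%, 9.28% and 12.3% higher and 11.9%, 15.8% and 21.1% lower. The median SE was 0.285 in the shortest class and 0.234 in the longest, and its part in these shares was not tested. The median change was -0.02 in the shortest class and -0.22 in the longest. With a filter of 1 FPKM the longest minus the shortest class came to -0.0018 in place of -0.21. The difference did not hold in both replicates either: it was -0.47 in replicate 1 and 0.054 in replicate 2.

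**Figure D5:**
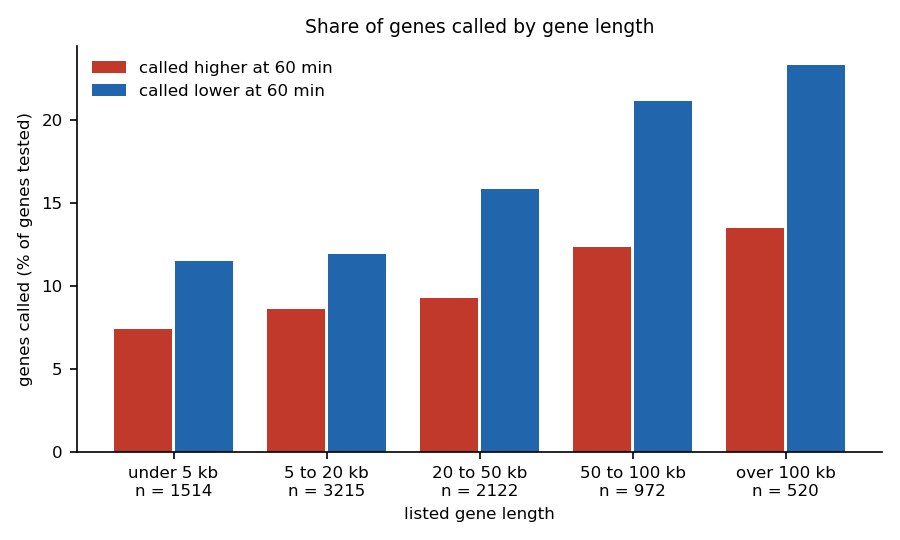
Genes called higher (red) and lower (blue) at 60 min as a percentage of the genes tested, in 5 classes of listed gene length, with the number of genes under each class. Both bars are taller in the longest class (13.5% and 23.3%) than in the shortest (7.40% and 11.5%).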

How the data were processed

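GRO-seq libraries of 4 time points with 2 biological replicates were used, grouped by labelled time and replicate. The deposited table gives 1 FPKM value, computed by the authors, per gene and library. The submitters' processing notes name CASAVA 1.7, Bowtie2 2.0.5, HOMER 4.6 and 4.7 and the mm9 build, with no role or order. Not given in the sources used here are strand handling, the treatment of duplicate or multiply mapped reads, and whether starts count from 0 or 1. In 99.3% of genes the listed length was end minus start, so values cover whole gene spans. The 8 per-sample columns of another treatment were not used.

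Depth was recovered from the FPKM steps in genes of up to 4000 bases; 100% of those values came out whole within 0.1 read, against 20% by chance. Genes averaging at least 0.5 FPKM were tested on log2(FPKM + 0.1) with limma 3.58.1 in R 4.3.3, with a variance trend, all 4 groups, the replicate number as a block, moderated two-sided tests and Benjamini-Hochberg adjustment over 8343 genes, called at an adjusted p under 0.05. The block was used because the comparison pairs replicates by their number in the labels. Differences of replicate 1 minus replicate 2 correlated between groups with r of 0.59 to 0.88 over the 6 pairs of groups.

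The comparison, the 30 gene lists and the genes named were chosen with earlier results of these data known. Named genes were the 12 largest rises and falls called, with groups that did not overlap and a higher mean of at least 2 FPKM, up to 4 called and 2 uncalled members of each list, and 12 genes always reported; 6 more are marked where they are given. Lists held 622 genes in the table, of which 521 were tested. Alternatives changed the pseudocount, filter, scaling, variance trend, libraries and block, or ran voom on recovered reads. Promoter windows came from RefSeq (GRCm38.p6), for genes with 1 window, and reached past the start.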

Additional observations from a re-analysis of the deposited data

How the results depend on the processing

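Of the 81 called genes named, none changed direction in any of the 20 alternatives that tested it; the filter of 1 FPKM left 6 of them untested (Bcl2a1a, Egr3, Ifnb1, Irf4, Siglec1 and Vcam1). In the alternatives that tested them, 45 were called each time, and 61 each time where the replicate block was kept. With no filter, 20 of these calls were lost, among them Csf2, Cxcl3, Irf4, Saa3 and the Bcl2a1 genes, and 24 were lost without the replicate block. Without that block, which leaves the spread between paired replicates in the error, 190 genes were called higher and 289 lower (594 and 988 at an unadjusted p under 0.05), with 46 and 19 list members against 131 and 86. Median-ratio scaling without the block, added after seeing the data, gave 198 and 287, with 40 and 16 list members. With no filter on low values, 431 genes were higher and 59 list members higher and 30 lower, and with a filter of 1 FPKM, which tests fewer genes, 660 genes were lower. Quantile normalization called 1172 higher and voom on recovered reads 1320 higher and 1546 lower; the cause was not tested. With 1 library left out, 364 to 1257 genes were higher and 474 to 1587 lower, and 71 to 154 and 43 to 103 list members. The share of genes called higher with a kB match was 7.79%, 11.7% without the block, 11.8% with median-ratio scaling and no block, and 6.28% to 11.6% with 1 library left out.

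Changes of sign were seen only in genes that were not called. On the log2 scale, the values after median-ratio scaling or quantile normalization were -0.085 for Actb (quantile) and -0.22 for Nfkbia (quantile). With 1 library left out the changes ran as follows: Actb from -0.22 to 0.26, B2m from -0.14 to 0.33, Cd14 from -0.054 to 0.47, Cebpb from -0.048 to 0.22, Irf1 from -0.31 to 0.71, Junb from -0.53 to 0.092, Lpl from -0.70 to 0.014, Nfkbiz from -0.20 to 0.45, S100a8 from -0.0082 to 0.51, Socs1 from -0.72 to 1.18. Depth limits replicate 2, in which 1 read of a gene of median length is worth more FPKM than in replicate 1, and 2 libraries a group limit every test. Values cover whole gene spans, so engaged polymerases near the start and in the gene body cannot be told apart.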
